A study of Mus musculus with 6 samples.

Results

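The genes described here write, guide or read the methyl marks of silent chromatin: the DNA methyltransferases Dnmt1, Dnmt3a and Dnmt3b, the Dnmt1 recruiter Uhrf1, the histone H3 lysine 9 (H3K9) methyltransferases Suv39h1, Suv39h2, Setdb1, Ehmt1 and Ehmt2, and the H3K9 methyl reader Cbx5. They were chosen by name, and all 10 were present among the 17254 genes with reads in any library. Of these 10, 9 reached a mean of 1 FPKM (a level adjusted for gene length and library total) and were tested with the 11717 genes that passed the same filter, whereas Dnmt3b did not.

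RNA was sequenced from cultured mouse neural stem and progenitor cells (NSPCs) after 48 h without treatment (control), with 5 µM paraquat (PQ), a herbicide that produces superoxide by redox cycling, or with 5 mM N-acetylcysteine (NAC), a thiol antioxidant. Each group had 2 libraries, with totals between 9680436 and 10698241 expected counts. Control 1 and PQ 1 carry an Illumina label, and control 2, PQ 2, NAC 1 and NAC 2 a BGISEQ-500 label, so control and PQ can be compared within a label, whereas NAC has a single control under its own label. The study's reporting summary says that the RNA sequencing was replicated, but neither it nor the labels say that the libraries of a group came from separate cultures, so p-values measure only the spread between these samples, which may be technical.

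The cells were an immortalized neonatal culture that lacks Ink/Arf according to the study's methods. The labels of control 1 and PQ 1 write this as Ink/Ark knockout in C57BL/6, and the labels of the other 4 libraries give no genotype. The culture was a mixture of stem cells, neuronal precursors and oligodendroglial progenitors in N2 medium with EGF and bFGF. Cdkn2a, the gene of the Ink4a and Arf proteins, had 120 to 162 expected counts per library (13.7 to 19.1 FPKM), and values per gene do not show which exons the reads came from, so they do not check the labelled deletion. The labels give the PQ dose for PQ 1 only, and the other doses are those of the study's text.

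In mammals, DNMT1 copies CpG methylation onto the new DNA strand behind the replication fork, at sites that UHRF1 marks for it, whereas DNMT3A and DNMT3B methylate DNA that carried no mark. SUV39H1 and SUV39H2 trimethylate H3K9 in pericentromeric heterochromatin, SETDB1 does so at retroelements, and EHMT1 and EHMT2 (GLP and G9a) form a heterodimer that dimethylates H3K9 in euchromatin. HP1α, the product of Cbx5, binds methylated H3K9 and compacts it. The marks themselves were not analysed here, and the values are transcript levels.

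Promoter sequences were examined because Dnmt1 and Uhrf1 act at replication, and many genes of the S phase carry sites for E2F factors near their start. RefSeq start sites of GRCm38.p6 gave 18 windows for the 10 genes, each from 250 bases before to 50 bases after a start. The letters TTTCCCGC, TTTCGCGC, TTTGGCGC and TTTGCCGC, typical of E2F sites, were searched on both strands. They occurred in 2.26% of 32851 windows of all genes, and 2.60% of 27025 genes had at least 1 such window. Among the genes tested for expression that had a window, 5.04% of 9339 did. Of the 10 genes, Dnmt1, Uhrf1 and Suv39h1 had a match, each in 1 of its windows, and the other 7 had none in these windows. A match describes the letters and does not show that a factor binds.

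The sequences are shown for the genes with a match and for Suv39h2, which had no match but fell in PQ as Dnmt1 and Uhrf1 did. Capitals mark the match, and the strand printed is that of the gene. Bases inside annotated exons of GENCODE vM1 were left out, except for 30 bases around the match of Dnmt1, which lay in its annotated first exon. The Uhrf1 and Suv39h1 stretches lay in annotated introns near the 5′ end, downstream of another start of the same gene, and the Suv39h2 stretch lay upstream of the gene.
Dnmt1, chr9:20952824-20952853, minus strand, GRCm38.p6: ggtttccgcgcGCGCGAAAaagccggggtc
Uhrf1, chr17:56304063-56304312, plus strand, GRCm38.p6: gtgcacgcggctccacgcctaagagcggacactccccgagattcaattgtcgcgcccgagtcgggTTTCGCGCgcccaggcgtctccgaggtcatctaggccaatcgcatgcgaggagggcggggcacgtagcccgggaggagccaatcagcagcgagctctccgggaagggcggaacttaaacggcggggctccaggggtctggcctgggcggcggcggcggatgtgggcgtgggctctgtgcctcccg
Suv39h1, chrX:8074362-8074543, minus strand, GRCm38.p6: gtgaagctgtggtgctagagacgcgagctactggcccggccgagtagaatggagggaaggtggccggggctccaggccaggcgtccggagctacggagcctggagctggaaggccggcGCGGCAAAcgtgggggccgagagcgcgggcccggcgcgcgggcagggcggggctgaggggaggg
Suv39h2, chr2:3475032-3475236, minus strand, GRCm38.p6: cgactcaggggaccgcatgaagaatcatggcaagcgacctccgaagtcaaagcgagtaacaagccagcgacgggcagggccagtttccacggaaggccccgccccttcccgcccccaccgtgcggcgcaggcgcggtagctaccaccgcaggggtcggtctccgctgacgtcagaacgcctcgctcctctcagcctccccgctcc

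Counted from the RefSeq start of its window, the match began at base -219 in Dnmt1, at -185 in Uhrf1 and at -64 in Suv39h1. The same Dnmt1 window held another match, TTTGGCGC, at base 34 after the start. Cdca7 and Hells, partners of DNA methylation described further on, had a match at -71 and -62, and Chaf1a, Chaf1b and Ahcy had none. Of the 20 S-phase genes with a window, 9 had a match (45.0%), and of the 14 mitosis genes with a window, 1 had (7.14%). The windows of the 10 genes were rich in CpG, with a median of 29.5 CpG per window, beside 21.0 for the genes tested and 7.0 for all genes.

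In control NSPCs the 10 genes spanned a wide range of levels. Dnmt1 was the most abundant at 91.1 ± 6.04 FPKM (SD, n = 2), above 93.2% of the genes tested. Cbx5 (48.8 ± 3.10 FPKM), Uhrf1 (47.4 ± 7.82 FPKM) and Ehmt2 (40.8 ± 2.59 FPKM) followed, and neighbours in this order overlapped. Suv39h1 (19.1 ± 2.13 FPKM) and Setdb1 (19.0 ± 1.07 FPKM) could not be ranked against each other, and both control libraries of Ehmt1 (17.0 ± 0.587 FPKM) lay just below theirs. Dnmt3a (11.3 ± 0.0566 FPKM) and Suv39h2 (7.33 ± 0.629 FPKM) were lower, and Dnmt3b was close to the bottom at 0.480 ± 0.0990 FPKM.

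**Figure D1:**
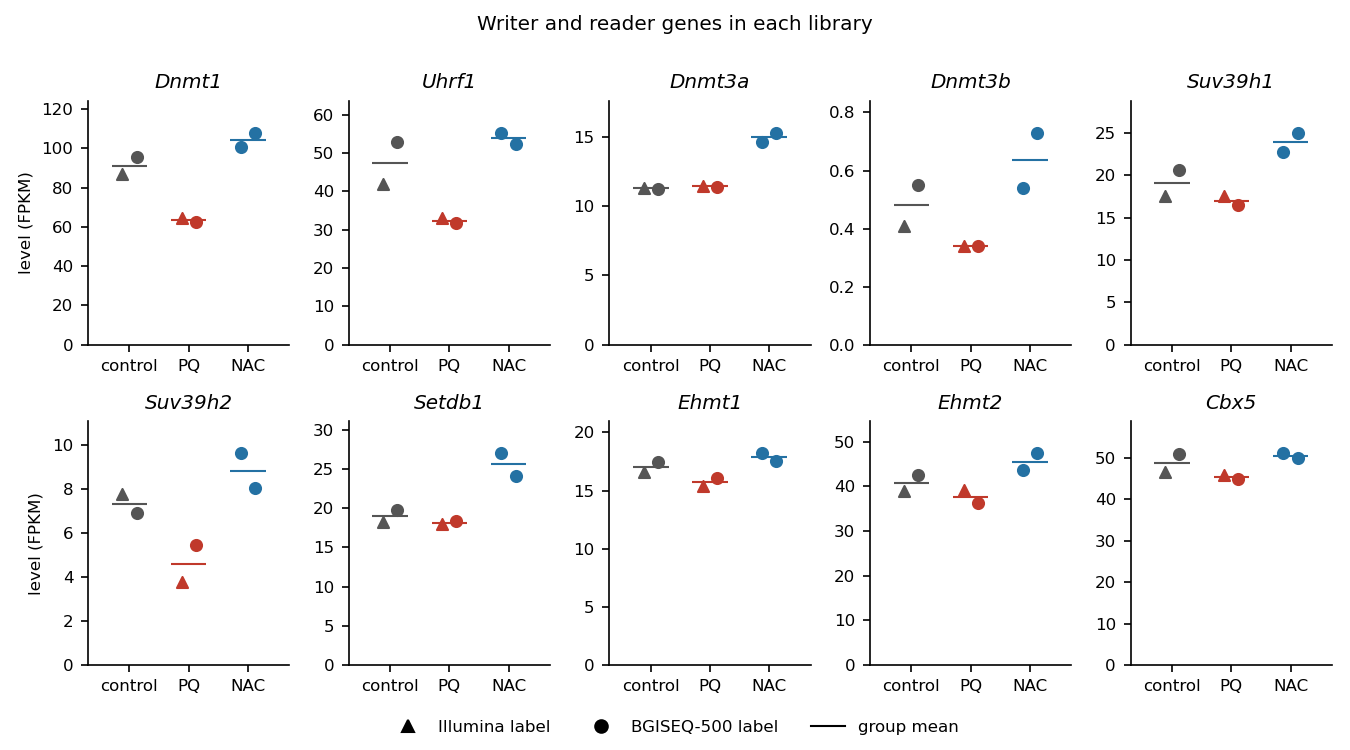
Level of each of the 10 genes in FPKM (y axis, from 0) in the control, PQ and NAC groups (x axis). Each symbol is 1 library, its shape gives the instrument label and the line is the group mean. In FPKM, both PQ libraries lie below all others for Dnmt1, Uhrf1, Dnmt3b, Suv39h1, Suv39h2, Ehmt1 and Cbx5, and both NAC libraries lie above all others for Dnmt1, Dnmt3a, Suv39h1, Suv39h2, Setdb1, Ehmt1 and Ehmt2. In normalized counts, the NAC libraries of Suv39h2 and Ehmt1 overlap the controls. The share of all genes separated in this way was not taken, so no support is drawn from these lists.

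PQ lowered 3 of the 9 genes tested, Dnmt1, Uhrf1 and Suv39h2, and raised 0 of them at an adjusted p under 0.05 in edgeR's quasi-likelihood test. Over all genes tested, 9.45% were lower and 9.76% higher in PQ, 2250 genes in all, and without PQ 1 the total was 866 and the members called were 2. All 9 log2 fold changes were below 0, with a median of -0.14, beside a median of -0.001 over all genes. With 9 genes, a single call is worth more than the whole background share, so the count says little on its own and the genes are described one at a time. In bulk RNA, fewer cells that express a gene and less RNA of that gene per cell cannot be told apart.

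NAC moved other members. Dnmt3a and Setdb1, 2 of the 9, were higher than in control, beside 9.01% of all genes, and 0 were lower, beside 9.64% of all genes. At an unadjusted p under 0.05 the counts were 3 higher and 0 lower, and DESeq2 and limma each called 2 higher and 0 lower. The members called in NAC were 1 without control 1, NAC 1 or NAC 2 and 4 without control 2, and the total over all genes, 2186, was 1286 without NAC 1 and 1427 without NAC 2. The median log2 fold change of the 9 genes was 0.15, beside -0.002 over all genes.

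Set against NAC, 6 of the 9 genes were lower in PQ, beside 15.7% of all genes, and 0 were higher, beside 16.0%. These were Dnmt1, Uhrf1, Dnmt3a, Suv39h1, Suv39h2 and Setdb1. The median log2 fold change was -0.47, and all 9 values were below 0. Over all genes 3708 were called, and 2343 without PQ 1 or 2407 without NAC 1. The 3 comparisons share libraries, so their values are given side by side and do not support one another.

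The maintenance pair fell together in PQ. Dnmt1 (NCBI gene 13433, mm9 chr9:20711650-20757317, minus strand) stood at 86.9 FPKM in control 1 and 95.4 FPKM in control 2, at 64.5 FPKM in PQ 1 and 62.4 FPKM in PQ 2, and at 101 FPKM in NAC 1 and 108 FPKM in NAC 2. Both PQ libraries lay well below both controls, and both NAC libraries lay a little above them, with no overlap between the 3 groups. Normalized counts of Dnmt1 averaged 5029 ± 306 in control and 3445 ± 42.0 in PQ (SD, n = 2). The fitted log2 fold change in PQ was -0.55 (SE 0.09), a fall of 31.5% in level, with an adjusted p of 0.00034 in edgeR's quasi-likelihood test. In NAC the log2 fold change of Dnmt1 was 0.15 (SE 0.09) and its adjusted p of 0.27 in the same edgeR test missed the threshold. That NAC value was 0.09 without control 1 and 0.21 without control 2.

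Uhrf1 (NCBI gene 18140, mm9 chr17:56442744-56462909, plus strand) had 41.9 and 53.0 FPKM in control 1 and 2, 32.9 and 31.6 FPKM in PQ 1 and 2, and 55.3 and 52.4 FPKM in NAC 1 and 2. The PQ libraries were the lowest and close to each other, whereas the controls differed from each other by more and control 2 reached the NAC level. The log2 fold change of Uhrf1 in PQ was -0.59 (SE 0.11), with an adjusted p of 0.00082 in edgeR's quasi-likelihood test. In NAC it was 0.14 (SE 0.11; adjusted p of 0.40 in the same edgeR test). The NAC value hung on the controls: without control 1 it was -0.01, and without control 2 it was 0.32 with an adjusted p of 0.045, the lowest of a range from 0.045 to 0.97 over 13 alternatives with edgeR, DESeq2 or limma.

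Within each instrument label the fall of both genes was present. Between PQ 1 and control 1, the Illumina-labelled pair, the log2 ratio of normalized counts was -0.47 for Dnmt1 and -0.40 for Uhrf1. Between PQ 2 and control 2, the BGISEQ-500-labelled pair, it was -0.62 for Dnmt1 and -0.77 for Uhrf1. Over the same 13 alternatives, the log2 fold change in PQ stayed between -0.62 and -0.48 for Dnmt1 and between -0.77 and -0.42 for Uhrf1, with adjusted p-values up to 0.0082 and 0.017. Against NAC, the log2 fold change in PQ was -0.70 (SE 0.09) for Dnmt1 and -0.74 (SE 0.11) for Uhrf1, with adjusted p-values of 9.7e-06 and 4.2e-05 in edgeR's quasi-likelihood test.

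Of the de novo enzymes, Dnmt3a (NCBI gene 13435, mm9 chr12:3806007-3914443, plus strand) had 11.3 and 11.2 FPKM in control 1 and 2, 11.4 and 11.4 FPKM in PQ 1 and 2, and 14.6 and 15.3 FPKM in NAC 1 and 2. Control and PQ libraries were nearly equal, and both NAC libraries stood above them. The log2 fold change of Dnmt3a in PQ was -0.01 (SE 0.09), with an approximate 95% interval from -0.19 to 0.17, and its sign turned without control 1. In NAC it was 0.36 (SE 0.09), with an adjusted p of 0.0090 in edgeR's quasi-likelihood test. That call was lost without NAC 2, where the log2 fold change was 0.34 and the adjusted p was 0.068, the highest of a range from 0.0060 to 0.068 over the 13 alternatives. Against control 2, which carries their own label, NAC 1 and NAC 2 gave log2 ratios of 0.35 and 0.40.

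Dnmt3b (NCBI gene 13436, mm9 chr2:153475186-153513466, plus strand) was barely transcribed, with 16 and 22 expected counts in control 1 and 2, 14 in each PQ library and 24 and 30 in NAC 1 and 2. These correspond to 0.340 to 0.730 FPKM. Both PQ libraries were the lowest and NAC 2 the highest, but the counts are small. In a fit with no filter on low values the log2 fold change of Dnmt3b was -0.48 (SE 0.42) in PQ and 0.41 (SE 0.37) in NAC, and neither passed the threshold, with adjusted p-values of 0.57 and 0.58 in edgeR's quasi-likelihood test. PQ against NAC gave -0.89 (SE 0.39), which did not pass either (adjusted p of 0.085 in the same edgeR test). Whether differences of these sizes could be detected at this depth was not tested. Dnmt3a transcripts outnumbered those of Dnmt3b per length by between 20.4 and 33.7 times, and Dnmt1 outnumbered Dnmt3a by 7.68 and 8.50 times in control 1 and 2, by 5.63 and 5.48 times in PQ 1 and 2, and by 6.89 and 7.07 times in NAC 1 and 2.

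Suv39h2 (NCBI gene 64707, mm9 chr2:3373087-3392303, minus strand), less abundant than Suv39h1, had 7.78 and 6.89 FPKM in control 1 and 2, 3.77 and 5.43 FPKM in PQ 1 and 2, and 9.63 and 8.02 FPKM in NAC 1 and 2. Both PQ libraries were below all others, and PQ 1 lay far below PQ 2. The log2 fold change of Suv39h2 in PQ was -0.69 (SE 0.16), with an adjusted p of 0.0054 in edgeR's quasi-likelihood test. It leaned on PQ 1: without that library it was -0.44 with an adjusted p of 0.14, and with only the BGISEQ-500-labelled libraries -0.35 with an adjusted p of 0.28, within a range from 2.4e-05 to 0.28 over the 13 alternatives. The log2 ratio was -1.07 between the Illumina-labelled PQ 1 and control 1 and -0.35 between the BGISEQ-500-labelled PQ 2 and control 2, where that of Suv39h1 was -0.33. Against NAC, Suv39h2 was lower in PQ by a log2 fold change of -0.92 (SE 0.16), and this call passed under all 13 alternatives, with adjusted p-values up to 0.0096 in edgeR, DESeq2 or limma.

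Suv39h1 (NCBI gene 20937, mm9 chrX:7638297-7651886, minus strand) had 17.6 and 20.6 FPKM in control 1 and 2, 17.5 and 16.5 FPKM in PQ 1 and 2, and 22.7 and 25.0 FPKM in NAC 1 and 2. PQ 1 was just below control 1, and both NAC libraries were above the controls. The log2 fold change of Suv39h1 was -0.19 (SE 0.11; adjusted p of 0.24) in PQ and 0.27 (SE 0.11; adjusted p of 0.080) in NAC, neither past the threshold of edgeR's quasi-likelihood test. Leaving out each library gave -0.30 to -0.08 in PQ and 0.17 to 0.39 in NAC. Without control 2 the NAC value was 0.39 and passed, with an adjusted p of 0.028 from a range of 0.028 to 0.44 over the 13 alternatives. PQ against NAC gave -0.47 (SE 0.11; adjusted p of 0.0024 in the same test). Per length, Suv39h1 transcripts exceeded those of Suv39h2 by 2.26 and 2.99 times in control 1 and 2, by 4.64 and 3.03 times in PQ 1 and 2, and by 2.36 and 3.12 times in NAC 1 and 2, so PQ 1 alone stood apart.

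Setdb1 (NCBI gene 84505, mm9 chr3:95127447-95161124, minus strand), which KRAB zinc finger proteins bring to retroelements through TRIM28, had 18.3 and 19.8 FPKM in control 1 and 2, 18.0 and 18.3 FPKM in PQ 1 and 2, and 27.0 and 24.1 FPKM in NAC 1 and 2. Control and PQ libraries were close, and both NAC libraries were clearly higher. In NAC the log2 fold change of Setdb1 was 0.38 (SE 0.10), with an adjusted p of 0.010 in edgeR's quasi-likelihood test. The call was lost without control 1 (0.33, adjusted p of 0.052), without NAC 1 (0.29, adjusted p of 0.14), with the instrument label as a covariate (0.34, adjusted p of 0.061) and with only the BGISEQ-500-labelled libraries (0.33, adjusted p of 0.062), within a range from 0.0040 to 0.14 over the 13 alternatives. In PQ the log2 fold change was -0.09 (SE 0.10), with an approximate 95% interval from -0.29 to 0.10. Leaving out each library gave -0.14 to -0.04 for this PQ value. Exons of Setdb1 overlap those of Lass2 on the opposite strand, as do those of Suv39h2 with Dclre1c and Gm13184, Dnmt3a with Gm10485 and Suv39h1 with Gm14820. The study's methods name a stranded library kit with an Illumina sequencer, but whether the counting used the strand is not given, so these levels are uncertain to that extent.

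Ehmt1 and Ehmt2, the subunits of the G9a-GLP heterodimer, moved little. Ehmt1 (NCBI gene 77683, mm9 chr2:24646289-24775129, minus strand) ranged from 15.4 to 18.2 FPKM and Ehmt2 (NCBI gene 110147, mm9 chr17:35035414-35050997, plus strand) from 36.3 to 47.5 FPKM over the 6 libraries. In both genes the highest library was a NAC one and the lowest a PQ one. The log2 fold change in PQ was -0.14 (SE 0.10) for Ehmt1 and -0.13 (SE 0.10) for Ehmt2, with approximate 95% intervals from -0.33 to 0.05 and from -0.32 to 0.05. Leaving out each library gave -0.18 to -0.09 for Ehmt1 and -0.19 to -0.07 for Ehmt2. PQ against NAC gave -0.25 (SE 0.10) for Ehmt2 and an adjusted p of 0.053 in edgeR's quasi-likelihood test. Without control 1, without control 2 or with only the 4 libraries compared, the same value passed and had an adjusted p of 0.032, from a range of 0.032 to 0.28 over the 13 alternatives. In NAC against control the value of Ehmt1 was 0.02 (SE 0.10), and it was -0.01 without control 1 or without NAC 1. Per length, Ehmt2 transcripts exceeded those of Ehmt1 by between 2.26 and 2.71 times over the 6 libraries.

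Cbx5 (NCBI gene 12419, mm9 chr15:103021975-103070247, minus strand) was nearly flat, from 44.8 FPKM in PQ 2 to 51.2 FPKM in NAC 1. The controls, at 46.6 and 51.0 FPKM, covered most of that range. Its log2 fold change was -0.13 (SE 0.09) in PQ, with an approximate 95% interval from -0.30 to 0.04, and 0.00 (SE 0.09) in NAC, where the sign turned without control 1 (-0.05) and without NAC 1 (-0.02). The PQ value of Cbx5 was -0.19 without control 1 and -0.07 without control 2. Expected counts of Cbx5 and of Ehmt2 were fractional in all 6 libraries, so some of their reads were shared with other genes and their levels are uncertain to that extent.

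The fall of Dnmt1 and Uhrf1 was set beside genes of the cell cycle, since both proteins work at replication forks. Of 24 S-phase genes, such as Pcna and the Mcm genes, 22 fell in PQ and 0 rose in edgeR's quasi-likelihood test, beside 9.45% and 9.76% of all genes. Their median log2 fold change was -0.65, beside -0.001 over all genes. The largest falls were those of Pole (-0.99), a replicative polymerase, and Mcm5 (-0.92), a helicase subunit. All 24 values were below 0, and they ran from -0.99 to -0.21. Of 16 mitosis genes, 16 fell, beside the same 9.45% of all genes, with a median of -0.58, led by Mki67 (-1.13) and Aurkb (-0.96). Without PQ 1 the count of mitosis genes that fell was 10.

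Dnmt1, Uhrf1 and Suv39h2 sat inside the S-phase range. In PQ, 16 of the 24 S-phase genes fell further than Dnmt1, 13 further than Uhrf1 and 11 further than Suv39h2, whereas all 24 had a lower value than each of the other 6 genes. Relative to the control mean, the S-phase median was -0.67 in PQ 1 and -0.65 in PQ 2 on the log2 CPM scale. The corresponding values were -0.53 and -0.56 for Dnmt1 and -0.56 and -0.60 for Uhrf1. A share of cycling cells was not measured, and its part in these falls was not tested.

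In NAC the S-phase genes had a median log2 fold change of 0.17, beside 0.15 for Dnmt1 and 0.14 for Uhrf1. Of the 24, only Cdc6 (0.60) and Mcm4 (0.49) were higher and 0 were lower in edgeR's quasi-likelihood test, beside 9.01% and 9.64% of all genes. The count of higher genes is near that share and is not read as a result about the list. Without control 1, and with only the BGISEQ-500-labelled libraries, the log2 fold change was 0.44 for Cdc6 and 0.31 for Mcm4, neither past the threshold, and without NAC 1 it was 0.52 and 0.41. Of the 16 mitosis genes, 0 moved in NAC in edgeR, DESeq2 or limma, with 4 higher and 1 lower at an unadjusted p under 0.05. Dnmt3a and Setdb1 stood at the upper end here, with 22 of the 24 S-phase genes below each of them.

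**Figure D2:**
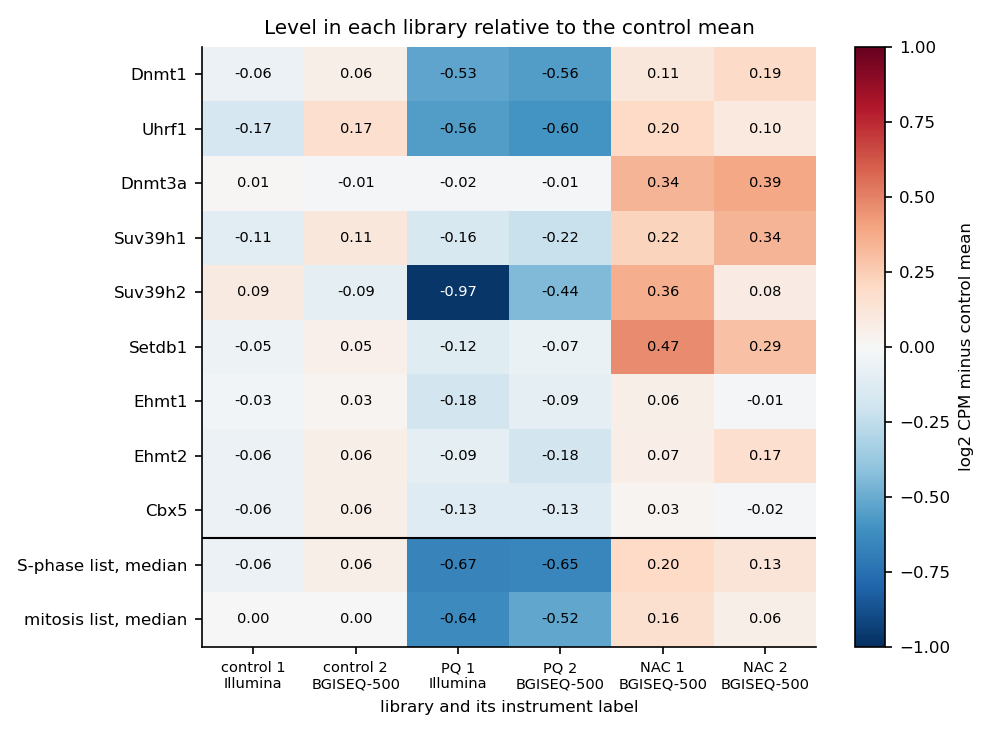
Log2 CPM minus the mean of the 2 control libraries (color and printed value) for the 9 genes tested and for the medians of the S-phase and mitosis lists (rows) in each library (columns). In the PQ columns Dnmt1 and Uhrf1 carry values close to the list medians, and Dnmt3a stays near 0. Suv39h2 is lowest in PQ 1, at -0.97.

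The genes with the profile most like that of Dnmt1 over the 6 libraries, by Euclidean distance between centered log2 CPM values among 11716 other genes, were Mdc1 (0.063), Xrcc3 (0.073), Ttf2 (0.107), Pimreg (0.117) and Ankrd26 (0.124). For Uhrf1 they were Ncapd2 (0.102), Dctd (0.115), Chaf1a (0.121), Chaf1b (0.122) and Fanca (0.128). These genes were picked for values close to those of Dnmt1 and Uhrf1 in the same libraries, so their fold changes follow from the choice.

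Among 12 partners and readers of DNA methylation, 11 were tested and Dnmt3l had no reads. In PQ 3 were lower and 1 higher in edgeR's quasi-likelihood test, beside 9.45% and 9.76% of all genes, with a median log2 fold change of -0.12. Cdca7, which recruits the remodeler HELLS to chromatin, fell from 24.2 and 23.4 FPKM in control 1 and 2 to 12.7 and 12.6 FPKM in PQ 1 and 2, and stood at 33.6 and 33.7 FPKM in NAC 1 and 2. Its libraries did not overlap between groups, and its log2 fold change was -0.94 in PQ and 0.45 in NAC, with adjusted p-values of 8.9e-06 and 0.0029 in edgeR's quasi-likelihood test, past the threshold under every alternative run. Hells was lower in PQ (-0.42), but not past the threshold without PQ 1 (-0.36), with limma (-0.38) or with only the BGISEQ-500-labelled libraries (-0.35). Zbtb38, a methyl-CpG reader, was higher in PQ (0.36) and lower in NAC (-0.40), the only other call of this list in NAC. The Zbtb38 call in PQ was lost without control 1 (0.29), PQ 1 (0.40) or PQ 2 (0.33), with DESeq2 (0.37) and with only the BGISEQ-500-labelled libraries (0.32). That in NAC was lost without control 2 (-0.32), NAC 1 (-0.39) or NAC 2 (-0.42) and with limma (-0.32).

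Of 12 partners of the H3K9 writers and other candidate writers, such as Trim28, Atf7ip and the HUSH subunits Mphosph8, Tasor and Pphln1, 10 were tested, and Prdm16 and Mecom were at or near 0. In PQ 0 changed in edgeR, DESeq2 or limma, beside 9.45% of all genes lower and 9.76% higher in edgeR. At an unadjusted p under 0.05 in edgeR, 1 was lower. The log2 fold changes of the 10 ran from -0.29 to 0.06. In NAC only Zfp644 was higher (0.34), a call that was lost without control 2 (0.31), PQ 1 (0.34), PQ 2 (0.34) or NAC 1 (0.17), and with DESeq2 (0.34), limma (0.35) or the instrument label as a covariate (0.33).

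Among 11 heterochromatin readers and H4K20 writers, all tested, 3 were lower and 0 higher in PQ in edgeR's quasi-likelihood test, beside 9.45% and 9.76% of all genes, with 0 higher also at an unadjusted p under 0.05, and the median log2 fold change was -0.22. Chaf1b (-0.60) and Chaf1a (-0.51), subunits of the chromatin assembly factor that deposits histones behind the fork, had the largest falls, and the Chaf1a call was lost without control 2 (-0.34). The remaining lower call was Cbx3 (-0.43), with means of 237.9 FPKM in control and 179.9 FPKM in PQ. Its values under the alternatives are not given here. In NAC only Kmt5b was higher (0.41), and not without control 2 (0.31), NAC 1 (0.39) or NAC 2 (0.42), nor with limma (0.36).

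Of 11 enzymes that remove H3K9 methylation, 10 were tested, and in PQ 2 were lower and 1 higher in edgeR's quasi-likelihood test, beside 9.45% and 9.76% of all genes, with a median log2 fold change of -0.08. Phf2 (-0.39) and Kdm4a (-0.34) were lower and Kdm7a higher (0.35), and each call was lost when single libraries were left out: that of Phf2 without PQ 1 (-0.41) or PQ 2 (-0.38), that of Kdm4a without control 1 (-0.23), PQ 1 (-0.36) or PQ 2 (-0.32), and that of Kdm7a without control 1 (0.36), control 2 (0.35) or PQ 2 (0.18). Kdm4a and Kdm7a also did not pass with DESeq2 (-0.34 and 0.36) or limma (-0.30 and 0.32), nor Kdm4a with only the BGISEQ-500-labelled libraries (-0.25). In NAC Jmjd1c (0.39) and Kdm3b (0.34) were higher. Jmjd1c passed under every alternative run, and Kdm3b did not without control 1 (0.30), NAC 1 (0.35) or NAC 2 (0.33), with the instrument label as a covariate (0.33) or with only the BGISEQ-500-labelled libraries (0.30).

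Some genes that supply the methyl donor S-adenosylmethionine or clear its product were read one at a time. Ahcy, which hydrolyzes S-adenosylhomocysteine, the product that inhibits methyltransferases, had 43.1 and 43.9 FPKM in control 1 and 2, 29.7 and 29.2 FPKM in PQ 1 and 2, and 51.6 and 48.5 FPKM in NAC 1 and 2. Both PQ libraries lay below all others, its log2 fold change was -0.59 with an adjusted p of 0.00033 in edgeR's quasi-likelihood test, and the log2 ratio within the Illumina and the BGISEQ-500 label was -0.58 and -0.59. Ahcyl2 was higher in NAC (0.44). Mat2a, the synthetase of S-adenosylmethionine, did not pass in PQ (0.13) or NAC (0.00). Gnmt, which consumes S-adenosylmethionine, was below the filter, at 0.100 to 0.280 FPKM.

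**Figure D3:**
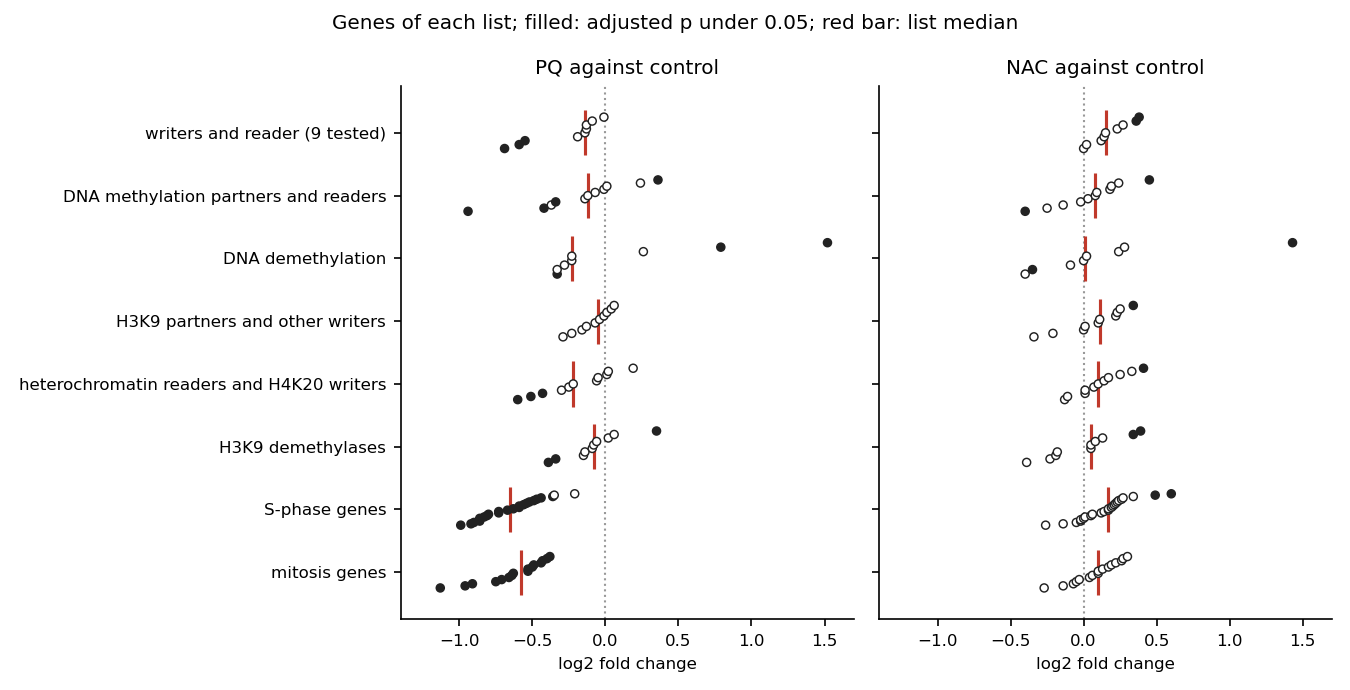
Log2 fold change (x axis) of each tested gene of 8 lists (rows) in PQ and in NAC against control. Filled symbols passed an adjusted p of 0.05, red bars are list medians and the dotted line is 0. In PQ the S-phase and mitosis lists lie entirely below 0, with medians of -0.65 and -0.58, whereas the medians of the chromatin lists lie between -0.23 and -0.05.

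Genes of the germline that DNA methylation keeps silent in somatic cells were also read, since they respond when maintenance methylation is lost. Of 14 such genes, 4 had no reads in any library, among them Dazl and Mael, and only Sycp3 passed the filter. Sycp3 had 1.37 and 1.34 FPKM in control 1 and 2, 1.47 and 0.650 FPKM in PQ 1 and 2, and 1.85 and 2.09 FPKM in NAC 1 and 2. The control libraries lay between those of PQ. The log2 fold change of -0.36 in PQ did not pass at an adjusted or unadjusted p under 0.05 in edgeR's quasi-likelihood test. The other genes of the list were not tested, so this result does not cover them. The summed level of the list was 3.73 and 3.47 FPKM in control 1 and 2, 3.52 and 2.44 FPKM in PQ 1 and 2, and 4.00 and 3.69 FPKM in NAC 1 and 2.

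Of 7 stem and progenitor markers, 7 had a mean of at least 1 FPKM. Their summed level was 3405 and 3471 FPKM in control 1 and 2, 3755 and 3819 FPKM in PQ 1 and 2, and 2682 and 2607 FPKM in NAC 1 and 2, and Vim was the most abundant of them. The sum follows Vim, which fell in NAC (-0.75) and had a log2 fold change of 0.18 in PQ, below the threshold, and the other markers went several ways. In PQ, Slc1a3 (-0.48) and Sox2 (-0.35) were lower and Nes (0.34) was higher. In NAC, Sox2 (-0.31) and Nes (-0.28) were lower and Slc1a3 (0.29) was higher. The Sox2 call in PQ was lost without control 1 (-0.23), PQ 1 (-0.34) or PQ 2 (-0.37), and in NAC without control 1 (-0.19), NAC 1 (-0.28) or NAC 2 (-0.34). The Nes call in PQ was lost without PQ 1 (0.34) or PQ 2 (0.35). With only the BGISEQ-500-labelled libraries, none of these PQ calls passed (-0.32 for Slc1a3, -0.22 for Sox2 and 0.31 for Nes). The Slc1a3 call in NAC was lost when any 1 library except control 1 was left out, with a value of 0.19 without control 2. The Nes call in NAC was lost when any 1 of the 6 libraries was left out, with values from -0.30 to -0.25. With the instrument label as a covariate, none of these calls in NAC but that of Vim passed (-0.26 for Sox2, -0.29 for Nes and 0.33 for Slc1a3), and with limma Sox2 (-0.26) and Nes (-0.23) did not.

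Of 5 markers of oligodendrocyte progenitors, 3 passed the filter, and the 5 summed to 651 and 752 FPKM in control 1 and 2, 767 and 665 FPKM in PQ 1 and 2, and 814 and 924 FPKM in NAC 1 and 2, with Olig1 the most abundant and Sox10 at or near 0. In NAC, Olig1 (0.41) and Pdgfra (0.40) were higher, Olig1 not without control 1 (0.25) or NAC 2 (0.27), and Pdgfra not without control 1 (0.33) or NAC 2 (0.29). Neither call passed with the instrument label as a covariate (0.37 for each) or with only the BGISEQ-500-labelled libraries (0.25 and 0.33), nor Olig1 with limma (0.46). Of 6 neuronal markers only Map2 passed the filter, at 34.2 to 35.6 FPKM in control, 32.6 to 34.0 FPKM in PQ and 58.0 to 64.9 FPKM in NAC, whereas Dcx and Stmn2 were at or near 0. Tubb3, below the filter, had 2.38 and 1.30 FPKM in control 1 and 2, 0.720 and 0.470 FPKM in PQ 1 and 2, and 0.320 and 0.440 FPKM in NAC 1 and 2. The 6, nearly all of it Map2, summed to 38.4 and 36.3 FPKM in control 1 and 2, 34.0 and 35.1 FPKM in PQ 1 and 2, and 65.5 and 59.0 FPKM in NAC 1 and 2.

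The other marker lists were lower. The 4 astrocyte markers, 4 of them past the filter, summed to 4.39 and 4.63 FPKM in control 1 and 2. The sums were 6.75 and 6.02 FPKM in PQ 1 and 2, and 9.64 and 9.53 FPKM in NAC 1 and 2. Gfap had the highest mean in control (1.905 FPKM) and NAC (4.605 FPKM), and Aldh1l1 in PQ (2.82 FPKM). Gfap was higher in NAC (1.23), as was Aqp4 (1.76, and 1.05 with limma). Aqp4 passed the filter only through NAC, with means of 0.745 FPKM in control, 0.685 FPKM in PQ and 2.61 FPKM in NAC. S100b too reached the filter through its NAC level, with means of 0.635 FPKM in control, 1.015 FPKM in PQ and 1.475 FPKM in NAC. No support is therefore drawn from the Aqp4 call or from the count of 4 markers past the filter. Aldh1l1 was higher in PQ (1.17, and 0.77 with limma), though not without PQ 1 (0.93) or with only the BGISEQ-500-labelled libraries (0.80), and its value in NAC was -0.49, not past the threshold. Of 5 microglia markers 1 passed, P2ry12, and Aif1, Csf1r and Tmem119 were at or near 0. P2ry12 was higher in NAC (1.18), a call that was lost without NAC 1 (0.86). The microglia sums were 2.05 and 1.87 FPKM in control 1 and 2 and 2.95 and 3.03 FPKM in PQ 1 and 2. In NAC 1 and 2 they were 4.50 and 3.53 FPKM. Of 3 endothelial markers 0 passed the filter, with Pecam1 the most abundant and Cldn5 without reads, and their sums ran from 0.160 to 0.540 FPKM over the 6 libraries. Of 4 fibroblast markers 0 passed the filter, and Lum was at or near 0. Col1a1 had the highest mean in control (0.295 FPKM), and Dcn in PQ (0.865 FPKM) and NAC (0.465 FPKM). The fibroblast sums were 0.510 and 0.520 FPKM in control 1 and 2 and 2.24 and 0.960 FPKM in PQ 1 and 2. In NAC 1 and 2 they were 0.970 and 1.09 FPKM. Markers of several cell types thus moved in NAC, in both directions, and the part of a changed cell mixture in the values of Dnmt3a and Setdb1 was not tested.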

How the data were processed

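The series holds 6 RNA-seq libraries, grouped by the treatment in their labels. For each gene the authors deposited its expected count, which can be fractional, and its FPKM. The submitters' processing notes name TopHat2 2.0.11, Cufflinks 2.1.1 and mm9 for the Illumina-labelled libraries, and HISAT2 2.0.4, Bowtie2 2.2.5, RSEM and mm10 for the BGISEQ-500-labelled ones, although all 6 tables have the columns RSEM writes. Genes absent from a table were taken as 0. NCBI identifiers were matched to symbols for 99.7% of genes. Positions are those of GENCODE vM1 on mm9.

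Expected counts were rounded and tested with edgeR 4.0.16 in R 4.3.3 (TMM, glmQLFit and glmQLFTest, no covariate, all 6 libraries). The filter kept the 11717 genes whose FPKM averaged 1 or more, and p-values were adjusted over them by Benjamini-Hochberg, with a threshold of 0.05. The common biological coefficient of variation was 7.48%. Standard errors came from the fold change and its F statistic, and approximate intervals from these errors. The code was tested on simulated counts. Members and lists were chosen with earlier results of these data known. All 10 members are given. From each list, the members past the threshold with the 2 largest changes in each direction were named for PQ and NAC against control, plus Gnmt and Mat2a. Not every list or gene that the rule takes is reported. Nes in NAC and Tubb3 are marker genes given beside it, and Cbx3 in PQ is a list member given beside it. Pcna, Trim28, Atf7ip and other genes named as examples or without reads are list members outside that rule, as are Ahcy, Chaf1a and Chaf1b in the promoter search.

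The 13 alternatives for a single gene were DESeq2's size factors, no filter, DESeq2 1.42.0, limma 3.58.1 on log2(FPKM + 1), a covariate for the instrument label, a fit of the 4 compared libraries alone, omission of each of the 6 libraries, and only the 4 BGISEQ-500-labelled libraries, the last added after the data were seen. Counts of genes were also taken at a fold of at least 2. Where a group keeps 1 library, it is assumed to vary like the others. Promoter windows are those of RefSeq.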

Additional observations from a re-analysis of the deposited data

How the results depend on the processing

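Of 351 refits of single members, 326 kept their direction and their side of the threshold, 13 changed sign, 7 lost a call and 5 gained one. No member that changed sign was a call in that comparison. In PQ against control, Dnmt3a gave 0.02 with limma and 0.01 with only the BGISEQ-500-labelled libraries, and -0.02 to 0.00034 when each library was left out. In NAC against control, Ehmt1 gave -0.01 and Cbx5 -0.02 with the instrument label as a covariate. With only the BGISEQ-500-labelled libraries, Uhrf1 and Ehmt1 each gave -0.01 and Cbx5 -0.05. Leaving out each library gave -0.01 to 0.32 for Uhrf1, -0.01 to 0.06 for Ehmt1 and -0.05 to 0.06 for Cbx5. The cause was not tested. Leaving out each library gave 866 to 2206 changed genes for PQ against control, 1286 to 2126 for NAC against control and 2343 to 4207 for PQ against NAC, and 2 to 3, 1 to 4 and 6 to 7 changed members. The lowest counts over all genes came without PQ 1, NAC 1 and PQ 1. With only the BGISEQ-500-labelled libraries, 993 genes changed in PQ against control, with fewer samples in the fit, and 1 member changed in NAC against control, as with the instrument label as a covariate (1). At a fold of at least 2, 210, 324 and 578 genes changed in the 3 comparisons, and 0, 0 and 0 members. Without the filter on low values, 2617, 2633 and 4218 of 17209 genes changed. With the instrument label as a covariate, which pairs control with PQ, 2067 genes and 3 members changed in PQ against control; the labels carry no replicate numbers for any other pairing. limma called 980 genes higher and 725 lower in PQ against control, beside 1143 and 1107 with edgeR, and 996 higher and 737 lower in NAC against control, beside 1056 and 1130.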

Other observations

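Genes of active DNA demethylation and its surroundings were read as a further list of 8 genes, all tested. In PQ against control 2 were higher and 1 lower in edgeR's quasi-likelihood test, beside 9.76% and 9.45% of all genes, with a median log2 fold change of -0.23. Gadd45b, a stress-induced gene whose protein has been tied to demethylation, stood at 4.80 and 4.40 FPKM in control 1 and 2, 15.2 and 11.6 FPKM in PQ 1 and 2, and 11.4 and 14.3 FPKM in NAC 1 and 2. All PQ and NAC libraries lay above both controls, with log2 fold changes of 1.52 in PQ and 1.43 in NAC and adjusted p-values of 3e-05 and 3.1e-05 in edgeR's quasi-likelihood test, past the threshold under all 13 alternatives. Gadd45g rose in PQ, from 46.6 and 47.8 FPKM in control 1 and 2 to 90.1 and 76.6 FPKM in PQ 1 and 2, and stayed at 47.7 and 49.5 FPKM in NAC 1 and 2. Its log2 fold change was 0.79 in PQ and 0.00 in NAC. Tet3, a methylcytosine dioxygenase, was lower in PQ (-0.33), a call that was lost when any 1 of the 4 control and PQ libraries was left out (-0.31 without control 1, -0.34 without control 2, -0.31 without PQ 1 and -0.34 without PQ 2). It was also lost with the instrument label as a covariate (-0.33), DESeq2 (-0.32), limma (-0.25) and only the BGISEQ-500-labelled libraries (-0.29). Apobec1 was lower in NAC (-0.35), a call lost under 10 of the 13 alternatives: without control 1 (-0.14), PQ 1 (-0.36), PQ 2 (-0.36), NAC 1 (-0.35) or NAC 2 (-0.36), with DESeq2 (-0.36), limma (-0.29), the instrument label as a covariate (-0.28), only the 4 libraries compared (-0.35) and only the BGISEQ-500-labelled libraries (-0.14). Without control 2 it was -0.54.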
